A study of Homo sapiens with 24 samples.

Results

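Genes of the basal urothelial layer and of its anchorage to the basement membrane were examined in the established human bladder cancer line RT112. The set was a fixed list of 9 genes: the keratins KRT5 and KRT17, the transcription factor TP63, the surface receptor CD44, the laminin chains LAMA3 and LAMB3, the integrin subunits ITGA6 and ITGB4, and the hemidesmosome collagen COL17A1. Of these, 5 had a probe set named in the platform annotation used here (KRT5, CD44, LAMB3, ITGA6 and ITGB4), out of 19775 genes named on the arrays. The other 4 were not analysed here. A gene was read from the probe set with the highest mean over the 24 arrays, and levels are log2 values, so a difference of 1 is a doubling.

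All cells were RT112 transduced with a doxycycline-inducible short hairpin RNA and grown in medium with 1% FBS. One line, the control, carried a hairpin against EGFP, a jellyfish gene that human cells lack, and the other 3 carried different hairpins against FGFR3, called 2-4, 4-1 and 6-16. FGFR3 encodes a growth factor receptor that is frequently mutated in urothelial tumours, and the series asked which genes change when it is depleted. Each line was kept for 48 h without doxycycline (untreated) or with it at 1 µg/ml (treated), with 3 arrays for each of these 8 groups. All of them derive from a single tumour line. Nothing states that the 3 arrays came from separate cultures, so p-values measure the spread between these arrays, which may be technical.

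In stratified epithelia such as the urothelium, the cells that touch the basement membrane are the basal cells. They make KRT5, a type II keratin that pairs with type I keratins into filaments. At hemidesmosomes these filaments are tied to the integrin made of the ITGA6 and ITGB4 chains, and outside the cell that integrin binds laminin-332, of which LAMB3 encodes the beta chain. CD44, a hyaluronan receptor, is widely used as a surface marker of basal urothelial cells.

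KRT5, CD44 and LAMB3 are the 3 genes with the largest differences of medians by TACC3 level below, so the sequence around their start sites is shown. RefSeq windows of the build GRCh38.p14, each 300 bases long with 250 before and 50 after the annotated start, were found for 4 of the 5 measured genes, with 1 window for KRT5 (chr12:52520345-52520644, minus strand), 1 for CD44 (chr11:35138921-35139220, plus strand) and 3 for LAMB3. Of the LAMB3 windows, the first (chr1:209652376-209652675, minus strand) overlaps the second, and the last (chr1:209651325-209651624, minus strand) lies apart. Each is printed 5′ to 3′ on the gene's strand, and capitals mark matches on either strand to the AP-1 motif TGANTCA, the GC box GGGCGG or the TATA box TATAAA.
KRT5: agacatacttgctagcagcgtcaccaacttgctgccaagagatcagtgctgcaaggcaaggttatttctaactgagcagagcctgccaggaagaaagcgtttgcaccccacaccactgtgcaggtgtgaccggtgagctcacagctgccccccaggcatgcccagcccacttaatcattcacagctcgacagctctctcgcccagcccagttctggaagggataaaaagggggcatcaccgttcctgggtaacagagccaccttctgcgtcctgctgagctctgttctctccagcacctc
CD44: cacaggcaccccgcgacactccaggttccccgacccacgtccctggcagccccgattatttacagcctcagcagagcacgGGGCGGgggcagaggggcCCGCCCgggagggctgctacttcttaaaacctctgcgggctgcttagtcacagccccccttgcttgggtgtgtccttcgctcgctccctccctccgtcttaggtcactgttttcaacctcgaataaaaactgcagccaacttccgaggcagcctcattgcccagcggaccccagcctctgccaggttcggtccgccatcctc
LAMB3, first window: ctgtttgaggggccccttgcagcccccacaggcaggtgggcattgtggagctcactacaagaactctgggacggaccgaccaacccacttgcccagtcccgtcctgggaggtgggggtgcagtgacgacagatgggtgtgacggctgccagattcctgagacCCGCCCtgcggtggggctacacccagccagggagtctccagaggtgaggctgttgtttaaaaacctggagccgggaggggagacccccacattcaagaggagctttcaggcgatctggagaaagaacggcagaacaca
LAMB3, last window: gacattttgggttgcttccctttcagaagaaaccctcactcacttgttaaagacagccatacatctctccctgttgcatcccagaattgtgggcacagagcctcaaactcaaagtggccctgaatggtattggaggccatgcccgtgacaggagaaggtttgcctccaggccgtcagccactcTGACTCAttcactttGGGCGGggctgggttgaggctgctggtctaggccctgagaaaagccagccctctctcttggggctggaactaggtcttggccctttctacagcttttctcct
The KRT5 window held no match to these letters, and the CD44 window held 2 GC boxes. The last LAMB3 window held a match to the AP-1 motif beginning 67 bases before the start and a GC box beginning 52 bases before it, and the first held a GC box. Over all 35116 windows of this length, 7.71% held the AP-1 motif, 45.0% a GC box and 11.5% the TATA box. These matches describe letters in the windows, and the probe sets do not tell which LAMB3 start was used.

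The hairpin's target was checked first, because it bears on every label. FGFR3, on the brighter of its 2 probe sets, ran from 11.13 to 12.34 over the 24 arrays, and its log2 change with doxycycline was 0.15 (2-4), -0.24 (4-1) and 0.42 (6-16), each with SE 0.31. None passed limma's test, with adjusted p of 0.999, 1.00 and 0.760. On the dimmer FGFR3 probe set it was 0.17, 0.29 and -0.83 in that order (SE 0.62), with a smallest limma adjusted p of 0.717, so the probe sets differ in sign for the 4-1 and 6-16 hairpins. The 6-16 arrays of the dimmer probe set overlapped, with 10.47, 8.91 and 10.84 treated and 11.03, 10.48 and 11.20 untreated. No fall of FGFR3 passed the test in the lines labelled with hairpins against it. Whether the labels match the arrays is therefore uncertain, and every by-label value below describes the labelled groups only. TACC3, a mitotic spindle gene to which FGFR3 is joined in these cells, ranged from 10.49 to 12.62 over the arrays. Its change with doxycycline was 0.28, 0.32 and -0.71 for the 3 FGFR3 hairpins (SE 0.46, smallest limma adjusted p 0.735). The 5 genes are therefore described in 2 ways, by label with tests, and by TACC3 level below or above 11.6 as a description without tests.

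None of the 5 genes passed limma's test for a change with doxycycline in any labelled line. The same holds for the background, since limma called 0.00% of the 19775 genes at an adjusted p under 0.05 in each line and in the difference between lines. At an unadjusted p under 0.05 the share of all genes was 2.55% for the EGFP hairpin, 2.46% for the 2-4 hairpin, 1.13% for the 4-1 hairpin and 7.78% for the 6-16 hairpin, and 0 of the 5 genes were among them. With arrays weighted by how closely they followed their labelled group, limma called 1291 of the 19775 genes for the 6-16 hairpin. It called 0 of the 5 members, which at that share says little about them. With the replicate number as a block limma called 1 gene for that hairpin, which was no member.

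KRT5 spread widely within the labelled groups. Without doxycycline its 3 arrays read 11.80, 11.30 and 11.09 for the EGFP hairpin, 11.61, 10.24 and 12.23 for the 2-4 hairpin, 10.46, 11.75 and 12.42 for the 4-1 hairpin, and 12.26, 11.23 and 12.21 for the 6-16 hairpin. With doxycycline they read 11.90, 11.58 and 11.87 for the EGFP hairpin, 11.94, 11.13 and 12.45 for the 2-4 hairpin, 11.22, 11.28 and 11.65 for the 4-1 hairpin, and 11.80, 10.45 and 12.49 for the 6-16 hairpin. The arrays with and without doxycycline overlapped in all 4 lines, and single arrays sat far from the others of their group. Its log2 change was 0.39 for the EGFP hairpin, 0.48 for the 2-4 hairpin, -0.16 for the 4-1 hairpin and -0.32 for the 6-16 hairpin, each with SE 0.54 and a limma adjusted p of 0.975, 0.999, 1.00 and 0.899. The direction in 3 lines rested on single arrays: the change was -0.08 for the 2-4 hairpin without untreated replicate 2, 0.28 for the 4-1 hairpin without untreated replicate 3, and 0.25 for the 6-16 hairpin without treated replicate 2.

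LAMB3 likewise spread widely within the labelled groups, except in the EGFP line without doxycycline. Without doxycycline it read 11.35, 11.29 and 11.40 for the EGFP hairpin, 10.32, 12.08 and 10.50 for the 2-4 hairpin, 12.27, 11.25 and 10.50 for the 4-1 hairpin, and 10.41, 11.17 and 10.38 for the 6-16 hairpin. With doxycycline it read 10.53, 10.27 and 11.22 for the EGFP hairpin, 10.51, 11.43 and 10.45 for the 2-4 hairpin, 11.56, 11.35 and 10.44 for the 4-1 hairpin, and 10.36, 12.12 and 10.48 for the 6-16 hairpin. In the EGFP line all 3 arrays with doxycycline lay below all 3 without, and in the FGFR3 lines they overlapped. Such a lack of overlap, in either direction, held for 10.6% of all genes for the EGFP hairpin, 7.43% for the 2-4 hairpin and 3.79% for the 4-1 hairpin. The log2 change of LAMB3 was -0.67 for the EGFP hairpin, -0.17 for the 2-4 hairpin, -0.22 for the 4-1 hairpin and 0.33 for the 6-16 hairpin (SE 0.52, limma adjusted p 0.975, 0.999, 1.00 and 0.888). Leaving out untreated 2-4 replicate 2 turned it to 0.39, untreated 4-1 replicate 1 to 0.25, and treated 6-16 replicate 2 to -0.24. Smaller turns came without treated 2-4 replicate 3 (0.0017) and without treated 4-1 replicate 3 (0.12).

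CD44 varied less, from 12.13 to 12.91 on its brightest probe set. Without doxycycline it read 12.45, 12.62 and 12.65 for the EGFP hairpin, 12.77, 12.13 and 12.81 for the 2-4 hairpin, 12.17, 12.39 and 12.67 for the 4-1 hairpin, and 12.91, 12.79 and 12.85 for the 6-16 hairpin. With doxycycline it read 12.71, 12.70 and 12.41 for the EGFP hairpin, 12.74, 12.62 and 12.62 for the 2-4 hairpin, 12.69, 12.62 and 12.76 for the 4-1 hairpin, and 12.72, 12.18 and 12.65 for the 6-16 hairpin. In the 6-16 line all 3 arrays with doxycycline lay below all 3 without, as 14.3% of all genes did in one direction or the other in that line. The log2 change there was -0.34 with a 95% interval of -0.67 to 0.0014 and a limma adjusted p of 0.641. It was -0.17 without treated replicate 2. In the EGFP, 2-4 and 4-1 lines the change was 0.03, 0.09 and 0.28 (SE 0.16), with limma adjusted p of 0.986, 0.999 and 1.00.

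The integrin subunits ITGA6 and ITGB4 together form the laminin receptor of the hemidesmosome. ITGA6 ran from 12.01 to 12.39 over all arrays, and its log2 change was -0.12, 0.04, 0.05 and -0.15 in the EGFP, 2-4, 4-1 and 6-16 lines (SE 0.10, smallest limma adjusted p 0.734). ITGB4 ran from 11.61 to 12.43, with changes of 0.10, 0.24, 0.20 and -0.20 (SE 0.18, smallest limma adjusted p 0.803). For both, arrays with and without doxycycline overlapped in every line. Leaving out single arrays moved the ITGB4 change over 0.018 to 0.18 for the EGFP hairpin, 0.029 to 0.38 for 2-4, 0.083 to 0.31 for 4-1 and -0.32 to 0.042 for 6-16. The 3 lowest ITGB4 values were 11.66, 11.61 and 11.79, on untreated 2-4 replicate 2, treated 6-16 replicate 2 and untreated 4-1 replicate 1.

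**Figure D1:**
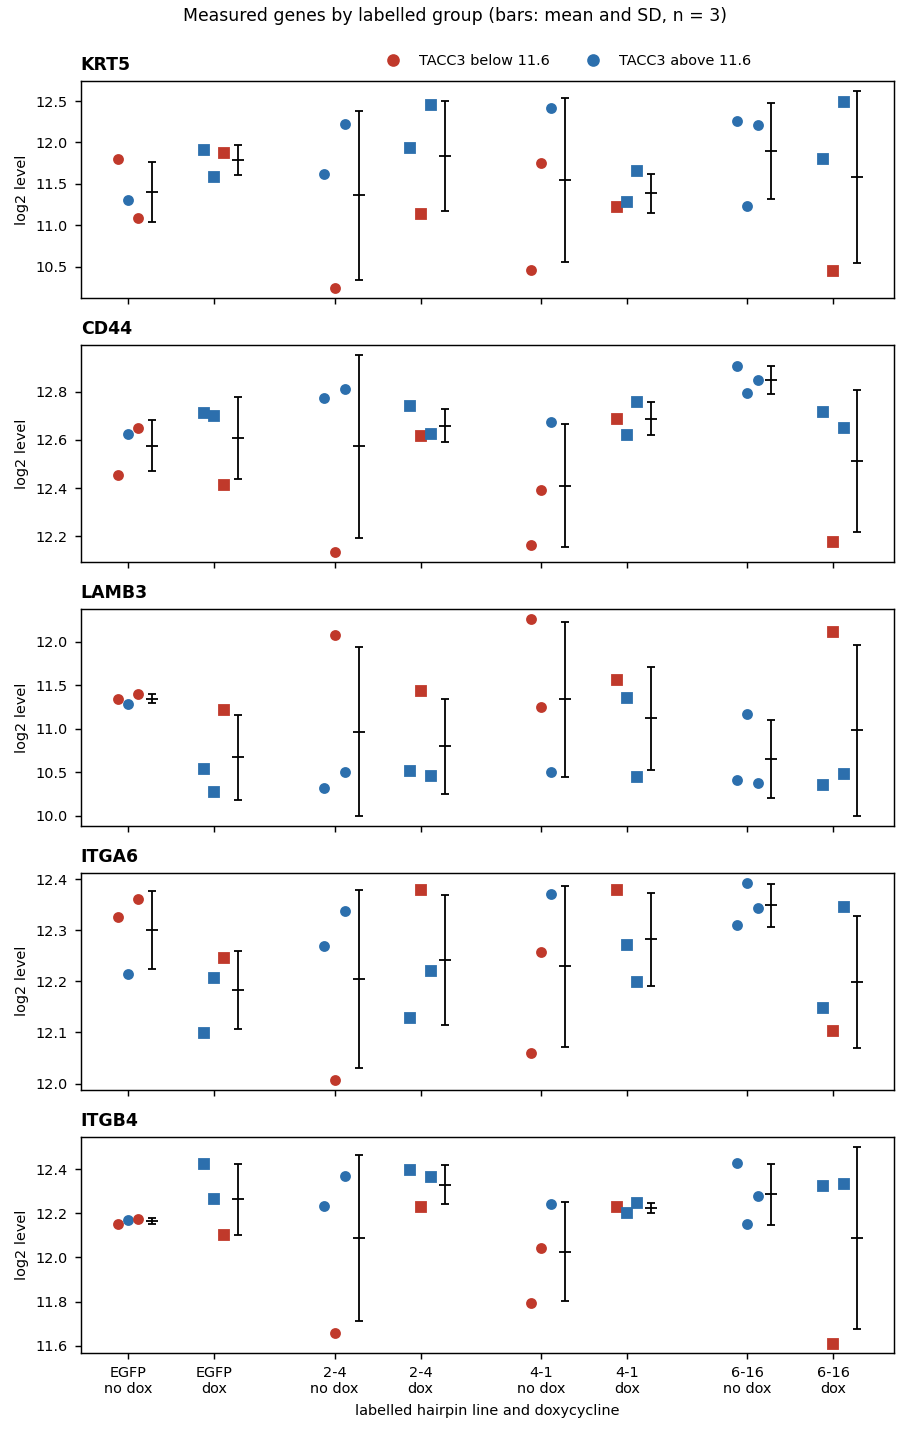
Log2 level of KRT5, CD44, LAMB3, ITGA6 and ITGB4 (vertical axes) in the 8 labelled groups (horizontal axis; circles without, squares with doxycycline; red where TACC3 was below 11.6, blue where above), with the mean and SD of the 3 arrays beside the points. Points of a group can lie far apart: KRT5 spans 10.24 to 12.23 among the 2-4 arrays without doxycycline.

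The FGFR3 line changes were then set against the EGFP line change, which asks, as far as the labels hold, whether the hairpins against FGFR3 changed these genes beyond the control hairpin. The mean FGFR3 line change minus the EGFP line change was -0.39 for KRT5 (95% interval -1.68 to 0.91), -0.02 for CD44 (-0.41 to 0.37) and 0.65 for LAMB3 (-0.59 to 1.90). It was 0.10 for ITGA6 (-0.13 to 0.33) and -0.02 for ITGB4 (-0.44 to 0.41). Leaving out single arrays gave -0.59 to -0.20 for KRT5, 0.45 to 0.93 for LAMB3 and 0.055 to 0.14 for ITGA6, and both signs for CD44 and ITGB4. Limma's adjusted p was 1.00 for all 5, and the unadjusted p of 0.286 to 0.936 also missed 0.05, where 2.16% of all genes passed. The interval of KRT5 includes more than a halving and that of LAMB3 more than a doubling. The labelled arrays thus do not settle the size of a change in these 2 genes.

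**Figure D2:**
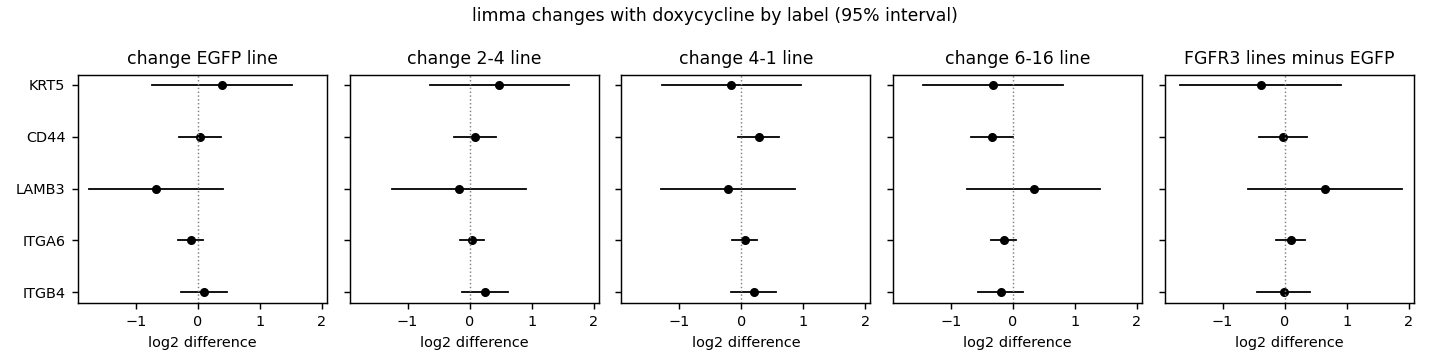
Log2 difference with its 95% interval (horizontal axes) for the 5 genes (rows) in each labelled line and in the mean FGFR3 line change minus the EGFP line change. Every interval includes 0; those of KRT5 and LAMB3 are the wide ones, and the CD44 interval for the 6-16 hairpin reaches 0.0014.

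The share of variation between labelled groups was computed for each gene. Of the variance over the 24 arrays, differences between the 8 labelled groups held 10.7% for KRT5, 17.0% for LAMB3, 23.0% for ITGB4, 23.9% for ITGA6 and 33.6% for CD44. The median over all genes was 26.4%, and 8 groups of 3 formed without regard to the values hold 30.4% on average. KRT5, LAMB3, ITGB4 and ITGA6 lay below both values and CD44 slightly above them. The whole range was 2.25 for KRT5, 2.00 for LAMB3, 0.82 for ITGB4, 0.77 for CD44 and 0.39 for ITGA6, against a median of 0.49 over all genes.

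The arrays were next described by their TACC3 level. TACC3 was below 11.6 on 9 arrays, from 10.49 to 11.43, and above it on 15, from 11.82 to 12.62. The dimmer FGFR3 probe set also separated these arrays, with 8.71 to 9.88 on the 9 and 10.34 to 11.20 on the 15. The division did not follow the labels: 4 of the 9 and 8 of the 15 were labelled with doxycycline, and the 9 held 3 arrays of the EGFP line, 2 of the 2-4 line, 3 of the 4-1 line and 1 of the 6-16 line. It comes from measured values and is no treatment group, so it was not tested. The excess of 3' over 5' signal for GAPDH, a sign of RNA degradation, was 0.28 to 0.42 on the 9 arrays and 0.20 to 0.29 on the 15, and that for ACTB was 0.79 to 1.17 and 0.70 to 0.97. The part of RNA quality in the differences below was not tested.

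KRT5 was lower on arrays with low TACC3 and LAMB3 was higher on them, so the basal keratin and the laminin chain went opposite ways. KRT5 had a lowest, median and highest value of 10.24, 11.13 and 11.87 on the 9 arrays and 11.23, 11.90 and 12.49 on the 15. The medians differed by -0.77, or 1.71-fold, and the ranges overlapped between 11.23 and 11.87. LAMB3 had 11.22, 11.43 and 12.27 on the 9 arrays and 10.27, 10.48 and 11.35 on the 15, a difference of medians of 0.95, or 1.94-fold higher with low TACC3. A difference of medians at least as large in size was found for 1.30% of all genes in the case of KRT5 and for 0.662% in the case of LAMB3. The members were chosen with earlier results of these data known, so these shares are a description and no test.

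CD44 was lower with low TACC3 and the integrin chains differed little. CD44 had 12.13, 12.41 and 12.69 on the 9 arrays and 12.62, 12.72 and 12.91 on the 15, a difference of -0.30. ITGB4 had 11.61, 12.10 and 12.23 against 12.15, 12.28 and 12.43, a difference of -0.18, and ITGA6 had 12.01, 12.26 and 12.38 against 12.10, 12.27 and 12.39, a difference of -0.01. On these probe sets the ranges of all 5 genes overlapped. The ranges pool arrays that differ in other measured levels, such as the brighter FGFR3 probe set, which ran from 11.13 to 12.34. The part of such differences in the overlap was not tested. Of all genes, 6.00% had no overlap, 3.09% lying lower and 2.90% higher with low TACC3. Differences at least as large in size were found for 11.9% of all genes for CD44, 24.4% for ITGB4 and 89.0% for ITGA6.

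**Figure D3:**
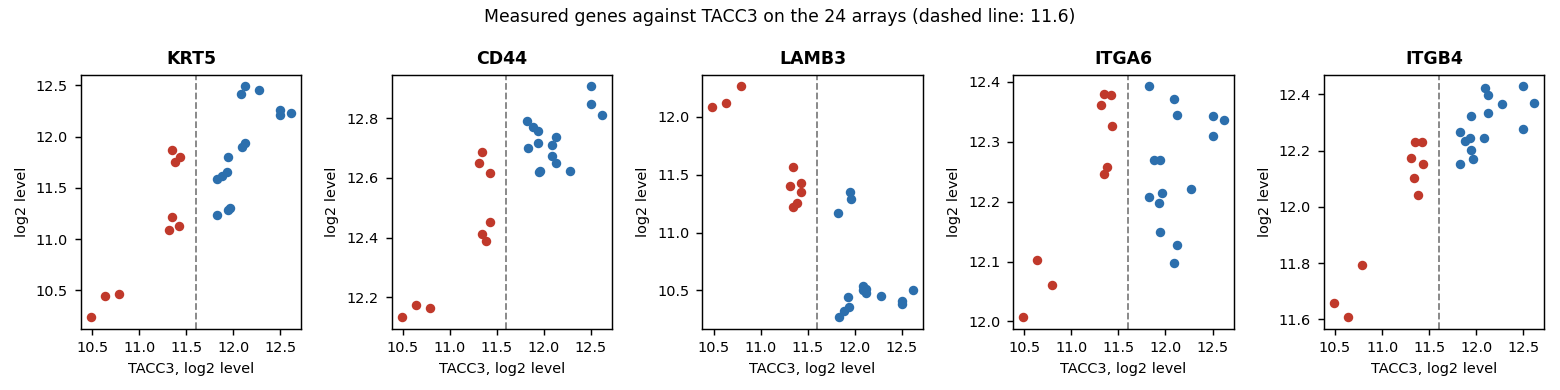
Log2 level of each of the 5 genes (vertical axes) against that of TACC3 (horizontal axes) on the 24 arrays, red below and blue above the dashed line at 11.6. The 3 arrays with TACC3 of 10.49 to 10.79 stand apart in KRT5, CD44, LAMB3 and ITGB4, and 3 arrays above the line have LAMB3 of 11.17 to 11.35.

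The 3 arrays with the lowest TACC3, 10.49, 10.64 and 10.79, stood apart from the rest in most of these genes. They were untreated 2-4 replicate 2, treated 6-16 replicate 2 and untreated 4-1 replicate 1. On them KRT5 read 10.24 to 10.46, CD44 12.13 to 12.18, LAMB3 12.08 to 12.27 and ITGB4 11.61 to 11.79. These were the 3 lowest values of KRT5, CD44 and ITGB4 and the 3 highest of LAMB3 among the 24 arrays. Their excess of 3' GAPDH signal was 0.37 to 0.42, against 0.28 to 0.38 on the other 6 arrays with TACC3 below 11.6. Without these 3 arrays the differences of medians were -0.42 for KRT5, -0.18 for CD44, 0.90 for LAMB3, -0.11 for ITGB4 and 0.07 for ITGA6. KRT5, CD44, LAMB3 and ITGB4 thus kept their direction, and ITGA6 changed sign.

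LAMB3 lay in 2 bands with a gap of 0.63 between them, 12 arrays from 10.27 to 10.53 and 12 from 11.17 to 12.27. All 9 arrays with TACC3 below 11.6 were in the upper band, together with 3 arrays whose TACC3 was 11.82 to 11.96. Those 3 were untreated 6-16 replicate 2, treated 4-1 replicate 2 and untreated EGFP replicate 2. Their KRT5 of 11.23, 11.28 and 11.30 was the lowest among the 15 arrays with TACC3 above 11.6, whose other 12 read 11.58 to 12.49. Their excess of 3' GAPDH signal was 0.26 to 0.29, within the 0.20 to 0.29 of the other 12. The upper band held 5 arrays labelled with doxycycline and the lower band 7.

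Probe sets of one gene were compared to see whether these directions rest on the one chosen. CD44 had 13 probe sets, all 13 with a lower median on arrays with low TACC3, with differences from -0.58 to -0.02. Those numbered 10 to 13 from the brightest had medians of 3.67 to 6.85, below the array medians of 6.98 to 7.08. The directions of those dim probe sets may be background signal. On 6 of the 13 the ranges did not overlap, where 2.18% of all 54675 probe sets were lower and 1.95% higher without overlap. The second brightest CD44 probe set ran from 10.24 to 10.96 on the 9 arrays and from 11.11 to 11.57 on the 15, a difference of -0.55 against -0.30 on the brightest. ITGB4 had 5 probe sets, all 5 with a lower median and all 5 with overlapping ranges, with differences from -0.33 to -0.04. Those numbered 4 and 5 from the brightest had medians of 6.41 to 6.83, also below the array medians. The 2 probe sets of ITGA6 differed by -0.01 and -0.0050, while KRT5 and LAMB3 had 1 probe set each. Probe sets of a gene share transcripts and are not replicates.

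Within the arrays of each TACC3 level, the 5 genes did not move as 1 block. These correlations describe arrays that share a normalization and in part a label, and they were not tested. Over the 9 arrays with low TACC3, CD44 and ITGA6 had a Pearson r of 0.97 (Spearman 0.97), and ITGA6 and ITGB4 had 0.95 (0.93). These were 0.92 and 0.93 over the 6 arrays that remain without the 3 lowest TACC3. KRT5 and CD44 had 0.56 over the 9 arrays and -0.94 over the 6, so their positive relation rested on the 3 lowest arrays. The 6 arrays lay in separate clumps. Treated 2-4 replicate 2, treated 4-1 replicate 1 and untreated EGFP replicate 3 had KRT5 of 11.09 to 11.22 and CD44 of 12.62 to 12.69. Untreated 4-1 replicate 2, treated EGFP replicate 3 and untreated EGFP replicate 1 had 11.75 to 11.87 and 12.39 to 12.45. The 3 lowest arrays formed a further clump, with KRT5 of 10.24 to 10.46 and CD44 of 12.13 to 12.18. Values over the 9 and over the 6 thus mostly contrast these clumps and do not show genes moving together array by array. KRT5 and LAMB3 had -0.93 over the 9, -0.79 over the 6 and -0.63 over the 15 arrays with high TACC3, where the Spearman value was -0.23. Over those 15 arrays ITGA6 and ITGB4, which encode the 2 chains of one integrin, had -0.36. Those 15 arrays also held separate sets. On the 3 with LAMB3 of 11.17 to 11.35, KRT5 was 11.23 to 11.30 and ITGB4 12.15 to 12.20. On the other 12, LAMB3 was 10.27 to 10.53, KRT5 11.58 to 12.49 and ITGB4 12.24 to 12.43. Values over the 15 can thus contrast these sets, which was not tested.

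The genes whose pattern over the 24 arrays was most like each of the 5 were found by Pearson correlation, as a description that pools both TACC3 levels. They were KIAA0040 and THSD4 for KRT5 (0.95 each), TLR4 and TNIK for CD44 (0.93 each), and SYTL5 and ELF3 for LAMB3 (both 0.98). For ITGA6 they were ABHD3 (0.86) and DAAM1 (0.84), and for ITGB4 CDC25B (0.96) and TUBB4B (0.95). The highest value was thus lowest for ITGA6, and LAMB3 had the highest Pearson values of the 5. LAMB3 lay in separate bands, which can raise a pooled Pearson value. By Spearman correlation SYTL5 and ELF3 had 0.87 and 0.93 with LAMB3, and KIAA0040 and THSD4 had 0.92 and 0.91 with KRT5.

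Other parts of the adhesion complex were mixed in direction. Of 14 listed hemidesmosome and laminin partners 13 were measured. Of these, 4 had a lower and 9 a higher median on arrays with low TACC3, with a median difference of 0.14 against -0.008 over all genes, of which 53.6% were lower. In 4 of the 13 the ranges did not overlap, beside the 6.00% of all genes. The lists, here and below, were chosen with earlier results of these data known, and the share of all genes also counts dim genes. Such counts are therefore a description and no independent support. DST, which encodes the plakin BPAG1 of the hemidesmosome plaque, ran from 9.70 to 11.47 with a median of 11.34 on the 9 arrays and from 9.41 to 10.93 with 10.23 on the 15, a difference of 1.11 with overlapping ranges. ITGA2, a collagen receptor chain, ran from 10.26 to 11.12 against 11.24 to 11.89, and ITGA3, a laminin receptor chain, from 10.08 to 10.27 against 10.46 to 10.80, both lower without overlap. The other 2 were higher without overlap and are named after their values were seen: ITGAV, a vitronectin receptor chain, by 0.43 and LAMA5, a laminin alpha chain, by 0.48. Laminin-binding ITGA3 was thus lower on arrays with low TACC3 while the laminin chain LAMB3 was higher.

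Basal genes did not share 1 direction. KRT15, a type I basal keratin, ran from 10.19 to 10.56 on the 9 arrays and from 9.19 to 9.79 on the 15, higher without overlap by 0.80, opposite to KRT5. KRT14, the usual type I partner of KRT5, had medians of 5.79 and 6.17 with overlapping ranges, and KRT16, a stress keratin, had 6.59 and 6.59. These were the 3 measured of 6 listed keratins, with 2 lower and 1 higher. The medians of KRT14 and KRT16 lay below the array medians of 6.98 to 7.08, so their directions may be background signal. Of 12 measured among 13 other basal urothelial genes, 4 were lower and 8 higher, with a median difference of 0.15. Of the 12, 3 did not overlap, beside 6.00% of all genes: S100A2 and, named after their values were seen, SFN, lower by 0.18, and TRIM29, higher by 0.29. S100A2, a calcium-binding protein of basal cells, ran from 11.23 to 12.54 against 12.84 to 13.62 and was lower by 0.97. DSC3, a desmosomal cadherin, was higher by 0.74 and JAG1, a Notch ligand, by 0.65, both with overlapping ranges.

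Keratins listed as luminal or simple-epithelial were divided in direction too. Of 6 measured luminal and simple-epithelial keratins, 3 were lower and 3 higher with low TACC3. KRT18 ran from 13.47 to 13.67 against 13.91 to 14.08, lower without overlap by 0.37, and its pairing partner KRT8 was lower by 0.46 and KRT7 by 0.37, both with overlap. The 3 that were higher are named after their values were seen. KRT13, a keratin of intermediate urothelial cells, ran from 14.25 to 14.50 against 13.91 to 14.14 and was higher without overlap by 0.29, and KRT20 and KRT19 were higher by 0.20 and 0.10 with overlap. The KRT20 medians of 5.98 and 5.78 lay below the array medians of 6.98 to 7.08, so its direction may be background signal. Of the 6, 2 did not overlap, beside 6.00% of all genes. Of 11 squamous differentiation genes, 6 were lower and 5 higher, with a median difference of -0.008. KRT4, a keratin of mucosal epithelia, ran from 13.05 to 13.23 against 12.44 to 12.72, higher without overlap, while the cornified envelope genes SPRR3 and SPRR1B differed by -0.14 and -0.10 with overlap. SPRR1B had medians of 6.55 and 6.65, also below the array medians.

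The partners of CD44 were divided in direction. Of 9 measured hyaluronan and CD44 partners, 5 were lower and 4 higher, with a median difference of -0.016. None of the 9 separated the arrays, as 6.00% of all genes did. HAS3, a hyaluronan synthase, differed by -0.47, RDX, which links CD44 to actin, by 0.35, and HMMR, another hyaluronan receptor, by -0.26. By label, limma called 0 of the measured genes of any list in any line.

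**Figure D4:**
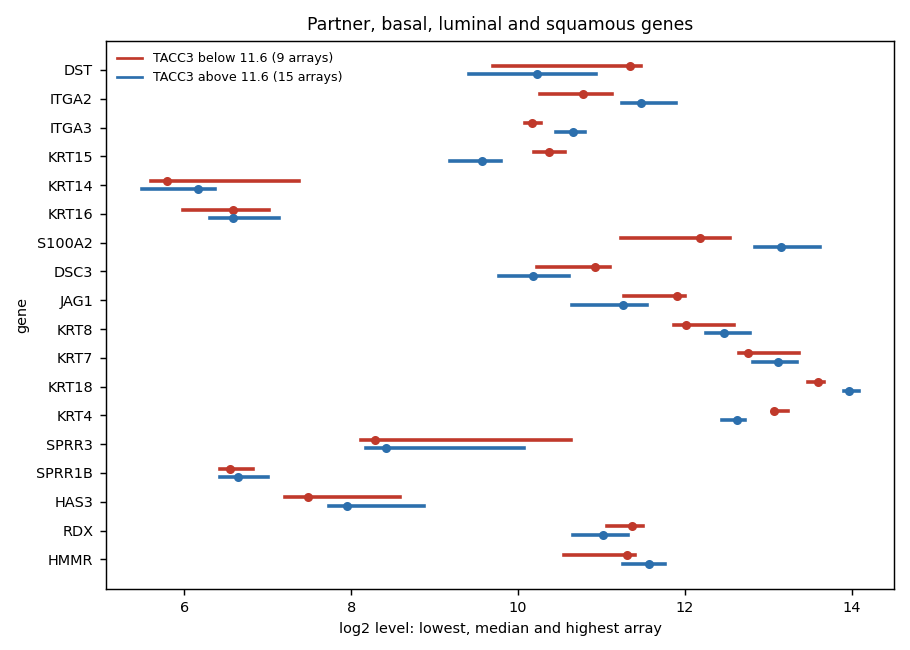
Lowest, median and highest log2 level (horizontal axis) on the 9 arrays with TACC3 below 11.6 (red) and the 15 above it (blue) for the 3 genes with the largest difference in each of the 6 companion lists (vertical axis). KRT15 and KRT4 lie higher and S100A2, ITGA2, ITGA3 and KRT18 lower on the 9 arrays, each without overlap.

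Cell identity was checked with marker lists. The mean log2 level of 9 urothelial markers was 11.84 to 12.30 on the 9 arrays with low TACC3 and 11.58 to 12.01 on the 15. Of the 9, 5 were higher and 4 lower with low TACC3, led by the uroplakin UPK1A at 12.08 to 12.97 against 10.01 to 11.36, UPK2 at a difference of 0.62 and UPK1B at 0.59. The other markers are named after their values were seen. The transcription factor GATA3 was higher by 0.34 without overlap and KRT19 by 0.10 with overlap. KRT18 was lower by 0.37 without overlap, and KRT8, KRT7 and UPK3A were lower by 0.46, 0.37 and 0.08 with overlap. The keratins of this list are also members of the luminal list. Means of 7 fibroblast markers were 8.20 to 8.35 and 8.14 to 8.30, those of 7 leukocyte markers 6.65 to 6.91 and 6.61 to 6.92, and those of 4 endothelial markers 7.43 to 7.66 and 7.48 to 7.74, with overlap in each. The fibroblast means include LUM, which was bright at 13.26 to 13.56 on the 9 arrays and 12.84 to 13.36 on the 15. The largest differences were 0.41 for LUM, 0.19 for DCN and -0.11 for COL1A1 among fibroblast genes. Among leukocyte genes they were -0.08 for CD14, -0.07 for CD3D and -0.05 for MS4A1, and among endothelial genes -0.09 for PECAM1, 0.08 for CDH5 and 0.05 for VWF. The part of other cells in the results was not tested.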

How the data were processed

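Total RNA of RT112 cells was measured on 24 Affymetrix arrays, 3 in each of 8 groups. The deposited values are log2 expression from RMA in the package affy, per the submitters' processing notes, and cover 54675 probe sets. RMA fits all arrays together, so values are comparable between arrays for a probe set but not between probe sets, and the number of arrays limits the precision. Of the probe sets, 41097 had 1 symbol in the platform annotation used here, 1801 several and 11777 none, and only the first kind was used. The brightest probe set stood for a gene. Array medians ran from 6.98 to 7.08 and no 2 arrays were identical. Changes were tested with limma 3.58.1 on the 8 group means, with Benjamini-Hochberg adjustment over 19775 genes at 0.05. The code was tried on simulated data with independent noise on each array. That trial does not show how the fit behaves where arrays share variation. For the dimmer FGFR3 probe set the fit and adjustment covered all 54675 probe sets. TACC3 levels were described by lowest, median and highest values without a test. The genes named by rule were the 5 measured members and, as checks of the labels, FGFR3 and TACC3. They also held the 3 genes of each list with the largest difference of medians by TACC3 level. The 2 genes with the highest correlation with each member were named as well. Further list genes were named after their values were seen, as marked where they appear. Members and lists were chosen with earlier results of these data known. Alternatives were array weights, the replicate number as a block, other probe sets, dim genes left out, each line alone, another TACC3 division and leaving out arrays.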

Additional observations from a re-analysis of the deposited data

How the results depend on the processing

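No member passed limma's threshold under any alternative run, so signs below are of changes that were not called. With array weights the 6-16 line had 1291 genes called, against 0, and the change was -0.032 for CD44, 0.13 for LAMB3 and -0.012 for ITGA6 in the 2-4 line, 0.050 for KRT5 in the 4-1 line and -0.071 for LAMB3 in the 6-16 line. With the replicate number as a block 1 gene was called in the 6-16 line, and 1 when that line was fitted alone. After each group's mean was subtracted from each gene, same-numbered treated and untreated arrays of a line correlated from -0.528 to 0.609. Of these 12 pairs 9 were over 0.1, with every pair in the 2-4 and 6-16 lines but not in the EGFP and 4-1 lines. Pairs with different numbers were not set beside them, so whether the numbers pair arrays was not shown in any line. In this balanced design the block cannot move a change, only its error. Without the 3 arrays of lowest TACC3, an alternative chosen after seeing the data, changes in the 2-4 line were -0.082 for KRT5, -0.13 for CD44, 0.39 for LAMB3 and -0.061 for ITGA6. In the 4-1 line they were 0.25 for LAMB3 and -0.032 for ITGA6, and in the 6-16 line 0.25 for KRT5, -0.24 for LAMB3 and 0.042 for ITGB4. By TACC3 level, ITGA6 then differed by 0.074, and by 0.018 with arrays divided at the TACC3 median. CD44 differed by -0.55 on its second brightest probe set. Leaving out 1 array at a time called 0 to 0 genes in each contrast. It gave -0.029 to 0.13 for CD44 in the EGFP line; in the 2-4 line -0.082 to 0.91 for KRT5, -0.13 to 0.21 for CD44, -0.49 to 0.39 for LAMB3 and -0.061 to 0.10 for ITGA6. It gave -0.70 to 0.28 for KRT5, -0.64 to 0.25 for LAMB3 and -0.032 to 0.12 for ITGA6 in the 4-1 line, and -0.78 to 0.25 for KRT5, -0.24 to 0.65 for LAMB3 and -0.32 to 0.042 for ITGB4 in the 6-16 line. For the difference between lines it gave -0.12 to 0.039 for CD44 and -0.097 to 0.064 for ITGB4, and by TACC3 level -0.019 to 0.022 for ITGA6. The cause of these turns was not tested.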
